A study of Mus musculus with 6 samples.

Results

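The Runx family of transcription factors and its partner Cbfb were followed in mouse CD4+ T cells cultured under conditions that induce regulatory T cells (Tregs). The members are the 4 genes Runx1, Runx2, Runx3 and Cbfb, found by their Ensembl identifiers in the GRCm38 annotation among the 39179 genes listed for each library. One arm received DEL-1-Fc, a fusion of the antibody Fc part with DEL-1, which is a secreted protein that binds integrins. The control arm received Fc alone, and each arm had 3 libraries of polyA RNA. All 6 libraries share one background: naive splenic CD4+ cells of wild-type C57BL/6 mice at 6 weeks of age, kept for 3 days with plate-bound anti-CD3 (2 µg/ml, a unit that the labels print unclearly), 1 µg/ml anti-CD28, 5 ng/ml TGFβ1 and 40 ng/ml IL-2. The series title links DEL-1 and β3 integrin to Runx-1-dependent Foxp3 expression, so the question here is how each Runx gene and Cbfb differed between the arms. Whether the replicates of an arm were separate animals or cultures is not stated in the labels, and the p-values therefore describe the spread between libraries, which may be technical.

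Runx proteins bind DNA through the Runt domain, and Cbfb (core binding factor β) makes no DNA contact of its own but strengthens the binding of any of the Runx proteins and protects them from degradation. In T cells Runx1 takes part in thymic development and, with Cbfb, binds the Foxp3 locus and keeps Foxp3 expressed. Runx3 silences Cd4 in CD8 lineage cells and works with T-bet in Th1 cells, and Runx2 is best known as the regulator of bone formation. Each Runx gene is known to be transcribed from a distal and a proximal promoter, which give proteins with different amino ends.

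The distal promoters are shown because they hold a run of bases that the Runx genes share and that the Cbfb window does not contain. The Runx motif searched was TGTGGT, which reads ACCACA on the other strand, on both strands of RefSeq promoter windows (GRCm38.p6) running from 250 bases before to 50 bases after each annotated start. The table held 6 windows for the members, a distal and a proximal one for Runx1 and Runx3 and a single one for Runx2 (the distal) and for Cbfb. Capitals mark the motif in these windows, written 5′ to 3′ in the direction of transcription.

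Runx1 distal promoter, chr16:92826025-92826324, minus strand: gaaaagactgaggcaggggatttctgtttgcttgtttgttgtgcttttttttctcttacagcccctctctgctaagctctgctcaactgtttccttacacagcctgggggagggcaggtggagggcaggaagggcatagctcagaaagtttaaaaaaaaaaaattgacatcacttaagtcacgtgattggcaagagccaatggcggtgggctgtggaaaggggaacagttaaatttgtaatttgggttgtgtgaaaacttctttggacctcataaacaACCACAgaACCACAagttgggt

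Runx2 distal promoter, chr17:44814578-44814877, minus strand: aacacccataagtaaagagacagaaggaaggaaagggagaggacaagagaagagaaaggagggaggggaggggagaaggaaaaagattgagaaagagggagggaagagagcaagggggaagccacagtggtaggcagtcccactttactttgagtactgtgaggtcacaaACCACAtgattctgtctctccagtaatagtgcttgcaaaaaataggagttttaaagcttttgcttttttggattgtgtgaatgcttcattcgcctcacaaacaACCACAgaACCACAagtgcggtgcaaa

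Runx3 distal promoter, chr4:135120395-135120694, plus strand: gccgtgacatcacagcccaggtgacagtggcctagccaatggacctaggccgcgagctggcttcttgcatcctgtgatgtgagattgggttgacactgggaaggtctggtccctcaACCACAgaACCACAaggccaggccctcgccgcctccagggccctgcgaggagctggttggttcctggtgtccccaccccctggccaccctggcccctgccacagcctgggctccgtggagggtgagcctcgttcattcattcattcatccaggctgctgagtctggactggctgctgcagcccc

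Shared run of the 3 distal promoters: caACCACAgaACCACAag

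The Runx1 distal window held 2 motifs, the Runx2 window 3 and the Runx3 distal window 2, while the proximal windows of Runx1 and Runx3 and the Cbfb window held 0. Of 32851 mouse promoter windows of the same length, 16.8% held at least 1 motif and 1.81% held 2 or more. The longest run of bases common to the 3 distal windows was the 18 bases printed above, which contain 2 motifs spaced by a pair of bases. Of the 32851 windows, 4 held this run on either strand, namely those of the 3 Runx genes and that of the non-coding Gm16225. The 3 Runx windows hold it by the way it was chosen. Gm16225 is read from the other strand next to the Runx3 distal start, so its window may hold the same bases as that of Runx3. The run lay 27 to 44 bases after the start in Runx1 and 22 to 39 bases after it in Runx2, but began 136 bases before the start in Runx3. A match is a description of the letters and was not tested as a binding site. The deposited counts are summed over each gene, so they do not separate distal from proximal transcripts. The distal windows had a GC content of 45.0% in Runx1 and 45.3% in Runx2, against 69.0% in the proximal window of Runx1, and the Runx3 windows had 63.7% and 77.3%.

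**Figure D1:**
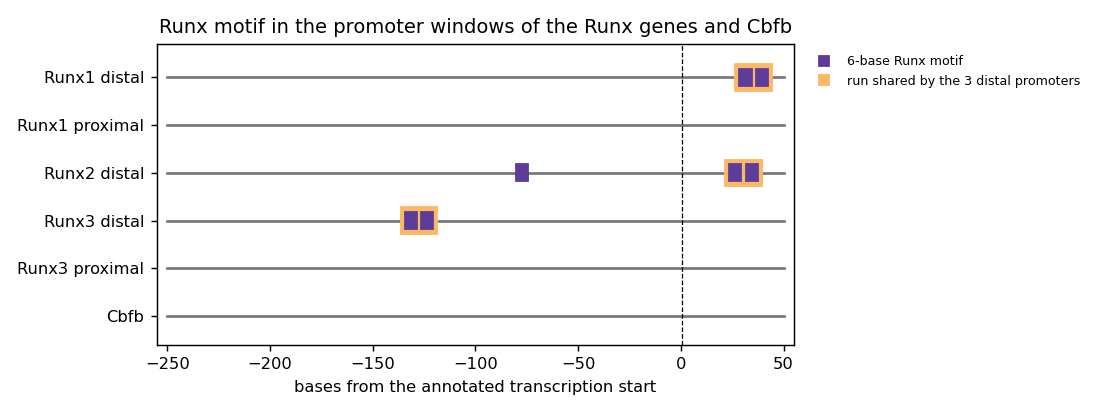
Positions of the Runx motif (purple) in the promoter windows of the members, in bases from the annotated transcription start (dashed line), with the 18-base run common to the 3 distal windows in orange. The run lies after the start in Runx1 and Runx2 and before it in Runx3, and the proximal and Cbfb windows hold 0 motifs.

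Library totals ran from 33364166 to 58075983 counts in DEL-1-Fc and from 55318383 to 61967687 in Fc, and DEL-1-Fc replicate 1 was the shallowest. That library also stood apart in a principal component analysis of log CPM (a gene's reads relative to the total of its library). The leading axis, with 44.0% of the variance, separated the arms, with Fc at -27.5 to -22.7. It put DEL-1-Fc replicate 1 at 47.7 and DEL-1-Fc replicates 2 and 3 at 14.3 and 12.8. The next axis, with 23.3%, put DEL-1-Fc replicate 1 at 27.9 and DEL-1-Fc replicates 2 and 3 at -28.7 and -23.6. Results without that library are therefore also given. They are named where the call of a member or of Foxp3 changed. Most others are given within the ranges over leaving out each library in turn. The T cell label held, since 7 of 7 T cell markers passed the filter on low counts. Their summed level was 2700 to 2965 CPM in DEL-1-Fc against 2679 to 2801 CPM in Fc. Of the 7, 1 was called higher in DEL-1-Fc and 0 lower, against 12.6% of all tested genes called. The called marker was Cd28 (edgeR adjusted p = 0.0385), which 9 of 16 alternative settings also called. Foxp3 itself measured 521.0, 584.1 and 464.8 CPM in DEL-1-Fc against 315.6, 414.1 and 348.8 CPM in Fc.

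The members were present at very different levels. In TPM units, which divide counts by the exon length of the gene and scale every library to the same total, Cbfb averaged 222.2 ± 10.9 in DEL-1-Fc and 201.0 ± 3.66 in Fc (SD, n = 3 each, as for the other members). Runx3 averaged 50 ± 3.08 TPM in DEL-1-Fc and 92.8 ± 6.17 TPM in Fc. Runx1 averaged 22.2 ± 3.39 TPM in DEL-1-Fc and 18.5 ± 0.887 TPM in Fc, and Runx2 2.84 ± 0.878 TPM in DEL-1-Fc and 4.31 ± 0.312 TPM in Fc. The order Cbfb, Runx3, Runx1, Runx2 was the same in both arms, and the ranges of neighbours in that order did not overlap in either arm. Among the 14928 tested genes, the TPM of Runx3 exceeded that of 73.5% in DEL-1-Fc and 84.6% in Fc, and the TPM of Cbfb exceeded that of 94.4% in DEL-1-Fc and 93.6% in Fc. These per-length levels depend on the length used. With the longest transcript in place of all exons, Runx1 averaged 33.8 ± 5.19 TPM in DEL-1-Fc and 28.2 ± 1.39 TPM in Fc, because its 12025 exon bases are spread over 7 annotated transcripts of which the longest has 5861 bases.

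Between the arms, Runx3 was the member that changed by the test, and it was lower in DEL-1-Fc. The other members were Runx1 and Cbfb, with averages above those of Fc, and Runx2, with an average below, and none of those passed. All 4 members had groups whose CPM ranges did not overlap, a pattern that held for 34.8% of all tested genes. A call at an adjusted p under 0.05 in edgeR's quasi-likelihood test was made for 1 of the 4 members, against 12.6% of the 14928 genes tested, with 6.4% of them higher and 6.22% lower in DEL-1-Fc.

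Runx1 (ENSMUSG00000022952, minus strand, chr16:92601466-92826149, GRCm38) had 74.1, 88.6 and 74.2 CPM in the DEL-1-Fc libraries, scaled by TMM (trimmed mean of M values) factors, against 65.7, 68.8 and 62.8 CPM in the Fc libraries. DEL-1-Fc replicate 2 was the highest, and the arms did not overlap. The log2 fold change, DEL-1-Fc over Fc, was 0.26 (SE 0.083) with an edgeR adjusted p of 0.0728. Its adjusted p ranged over 16 alternative settings from 0.0222 to 0.241, and 2 of the 16 called it. Leaving out DEL-1-Fc replicate 1 gave 0.31 with an adjusted p of 0.0222. Leaving out DEL-1-Fc replicate 2, the highest library, gave 0.17 with an adjusted p of 0.13. DESeq2 gave 0.26 with an adjusted p of 0.0421.

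Runx3 (ENSMUSG00000070691, plus strand, chr4:135120652-135177990) measured 79.5, 75.5 and 68.4 CPM in DEL-1-Fc, against 142.6, 142.5 and 127.6 CPM in Fc. The highest DEL-1-Fc library was well below the lowest Fc library. In bulk RNA, fewer cells of a type and less RNA per cell cannot be told apart. The gene fell 1.85-fold (log2 fold change -0.89, SE 0.0764, edgeR adjusted p = 0.000207), the 81st smallest p of the 14928 genes tested. It was called under all 16 alternative settings, with an adjusted p of at most 0.00274 and a log2 fold change between -0.94 and -0.83 when 1 library was left out.

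Runx2 (ENSMUSG00000039153, minus strand, chr17:44495987-44814797) was scarce, with 184 to 532 counts per library in DEL-1-Fc and 577 to 740 in Fc. It measured 5.61, 9.41 and 7.19 CPM in DEL-1-Fc, against 11.3, 12.1 and 10.5 CPM in Fc. The DEL-1-Fc libraries spread more widely than the Fc libraries (SD 1.91 against 0.784 CPM), and DEL-1-Fc replicate 1 was the lowest. The log2 fold change was -0.60 (SE 0.171, edgeR adjusted p = 0.0512), just outside the threshold. It was called under 7 of 16 alternatives, among them those that left out DEL-1-Fc replicate 1 (-0.44, adjusted p = 0.0292) or replicate 2 (-0.81, adjusted p = 0.0086), and its adjusted p ranged from 0.00472 to 0.175.

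Cbfb (ENSMUSG00000031885, plus strand, chr8:105170674-105217989) was the most even member. It had 232.2, 226.6 and 231.2 CPM in DEL-1-Fc, against 202.8, 207.4 and 211.9 CPM in Fc. The libraries of each arm lay close together and the arms did not overlap, but the log2 fold change of 0.15 (SE 0.0555) had an edgeR adjusted p of 0.121. None of the 16 alternatives called it (adjusted p 0.0515 to 0.366).

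**Figure D2:**
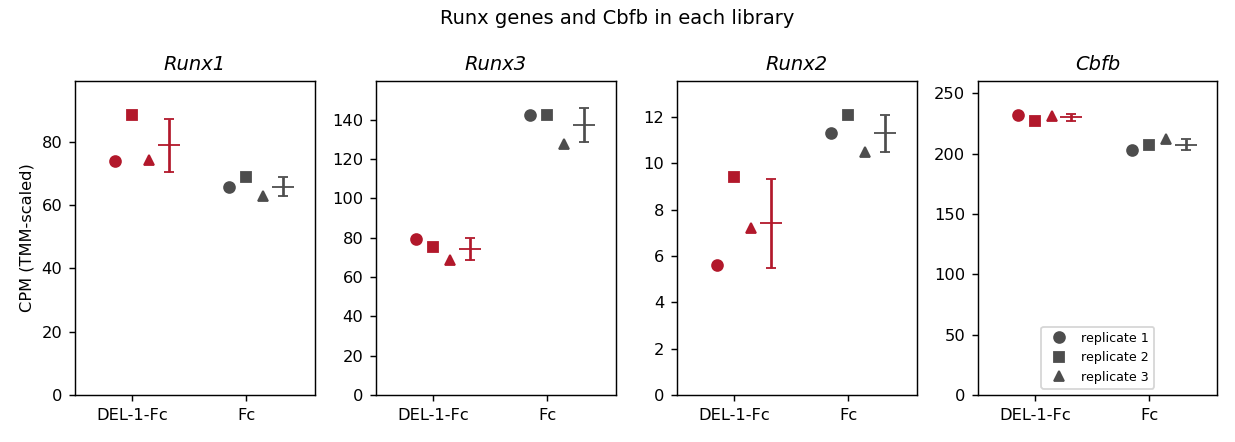
CPM of the 4 members in each library (circle, square and triangle for replicates 1, 2 and 3) with the mean and SD of each arm beside them, DEL-1-Fc in red and Fc in grey, on axes that start at 0. Runx3 runs from 68.4 to 79.5 CPM in DEL-1-Fc and from 127.6 to 142.6 CPM in Fc, while the arms lie much closer together for Runx1 and Cbfb.

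Cells that carry much Runx3 in spleen include CD8 T cells and NK cells, so markers of these and other cell types were read beside it. The 2 CD8 markers summed to 11.9 to 12.8 CPM in DEL-1-Fc against 10.1 to 10.4 CPM in Fc. Of these, Cd8a was called higher (log2 fold change 0.78, edgeR adjusted p = 0.00607) and Cd8b1 hardly differed (0.04, adjusted p = 0.846). These 2 genes are also on the list, given below, of T cell genes reported as Runx-regulated. Their sum is therefore no separate gauge of CD8 cells. The 4 NK markers summed to 0.548 to 1.16 CPM in DEL-1-Fc against 2.73 to 3.41 CPM in Fc, with Ncr1 at 0 counts in every library and only Klrk1, a receptor also found on activated T cells, tested. Klrk1 fell to 0.488, 0.778 and 1.10 CPM in DEL-1-Fc, against 2.68, 2.69 and 3.31 CPM in Fc (log2 fold change -1.84, SE 0.255, edgeR adjusted p = 0.00201). The B cell markers summed to 5.65 to 6.92 CPM in DEL-1-Fc against 4.60 to 6.01 CPM in Fc, and the γδ T cell marker that was matched ran from 0.305 to 0.422 CPM in DEL-1-Fc and from 0.0816 to 0.237 CPM in Fc. The myeloid, dendritic, and mast cell and basophil lists each summed to under 1 CPM in every library. The stromal and endothelial list summed to 73.8 to 85.4 CPM in DEL-1-Fc against 58.3 to 68.7 CPM in Fc, nearly all of it Pecam1, an adhesion molecule that T cells also express, while Col1a1, Col1a2 and Cdh5 averaged under 1 CPM. The part of these levels in the Runx results was not tested.

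Reads of the members could be told from those of other genes for most of their length. Of the 31-base words in its annotated transcripts, Runx1 shared 0.795% with transcripts of other genes, Runx2 6.39%, Runx3 1.44% and Cbfb 0, on either strand. Runx1 and Runx3 shared 9 words with other members, and Runx2 shared 0. The larger share of Runx2 came from Runx2os1, a non-coding gene on the opposite strand that covers 519 of its exon bases and had 6 to 10 counts in DEL-1-Fc libraries and 4 to 14 in Fc libraries. Gm26626, opposite Runx1, had 2 to 7 counts in DEL-1-Fc and 4 to 7 in Fc. The strand setting of the counting is not given in the sources used here, so reads of these antisense pairs are uncertain.

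The make-up of the Runx family is a second view of the same counts, in which library scaling cancels. Runx1 made up 46.6%, 51.1% and 49.5% of the summed Runx1, Runx2 and Runx3 counts in DEL-1-Fc, against 29.9%, 30.8% and 31.3% in Fc. Runx3 made up 49.9%, 43.5% and 45.7% in DEL-1-Fc, against 64.9%, 63.8% and 63.5% in Fc. The groups did not overlap for either gene. The mean share of Runx1 was 18.4 percentage points higher in DEL-1-Fc and that of Runx3 lay 17.7 points lower (difference -17.7), each with an exact two-sided permutation p of 0.10, the smallest p that 3 against 3 libraries allow. Shares of the same sum are not independent, and a lower Runx3 raises the share of Runx1 even where Runx1 is unchanged. The level of Runx1 itself was not called (log2 fold change 0.26, edgeR adjusted p = 0.0728).

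Runx2 held a small share, with 3.52%, 5.42% and 4.80% in DEL-1-Fc and 5.13%, 5.41% and 5.23% in Fc, and these ranges overlapped (exact permutation p = 0.40). Because the Runx1 exons are longer, a share of counts overstates the share of Runx1 molecules. Per kilobase of exon, Runx1 made up 29.5% ± 2.11 in DEL-1-Fc and 16.0% ± 0.439 in Fc, and Runx3 66.8% ± 2.99 in DEL-1-Fc and 80.3% ± 0.516 in Fc (SD, n = 3 each), so Runx3 remained the most abundant Runx transcript in both arms on that scale. On that scale the Runx2 difference turned from -0.677 to 0.0235 percentage points, with overlapping ranges. Per kilobase of longest transcript, a scale chosen after seeing the data, Runx1 made up 39.9% ± 2.42 in DEL-1-Fc and 23.2% ± 0.582 in Fc.

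**Figure D3:**
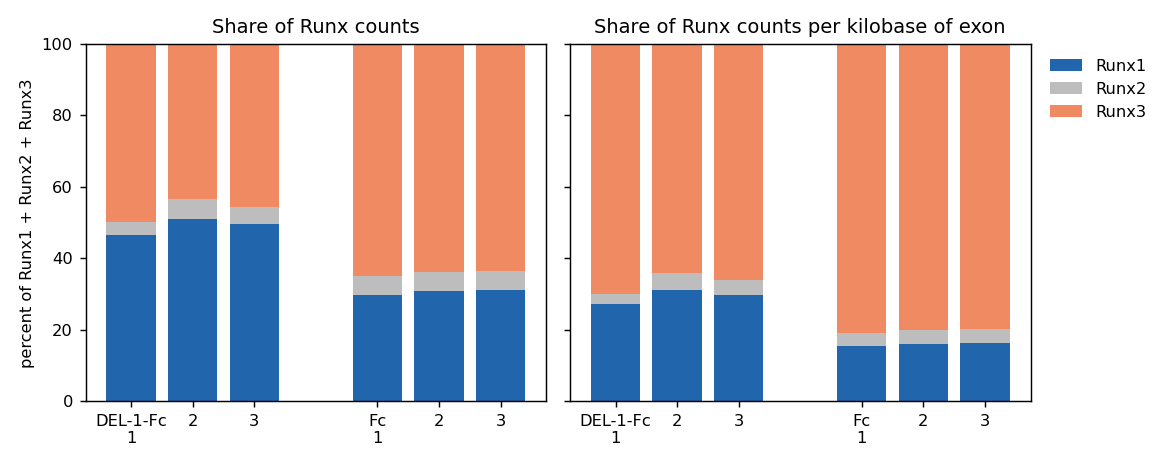
Percent of the summed Runx1, Runx2 and Runx3 signal taken by each gene in every library, from counts on the left and from counts per kilobase of exon on the right, with the 3 DEL-1-Fc libraries left of the 3 Fc libraries. The Runx1 part is larger and the Runx3 part smaller in each DEL-1-Fc library than in each Fc library on both scales.

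The ratio of Runx1 to Runx3 counts was 0.933, 1.17 and 1.08 in DEL-1-Fc, against 0.461, 0.483 and 0.493 in Fc. Every DEL-1-Fc library was above every Fc library. The mean log2 ratio was 1.15 higher in DEL-1-Fc (exact permutation p = 0.10), and it differed by 1.07 to 1.24 when 1 library was left out. This is the direct comparison of the changes in the 2 genes, and 3 against 3 libraries cannot take it below 0.10.

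The summed Runx1, Runx2 and Runx3 level was 159.2, 173.5 and 149.8 CPM in DEL-1-Fc, against 219.6, 223.3 and 200.9 CPM in Fc. The sum was lower in every DEL-1-Fc library, by 0.42 on average on the log2 scale (-0.42, exact permutation p = 0.10). With counts divided by exon length before adding, the log2 difference was -0.62 (exact permutation p = 0.10). Cbfb, in contrast, was not lower, and its counts were 1.46, 1.31 and 1.54 times the Runx sum in DEL-1-Fc and 0.924, 0.929 and 1.05 times that sum in Fc. The log2 ratio of Cbfb to the Runx sum was 0.57 higher in DEL-1-Fc (exact permutation p = 0.10), and 0.77 higher when counts were first divided by exon length.

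The profiles of the members over the 6 libraries were compared as log2 CPM centred on each gene's own mean, with the root mean square difference as the measure of likeness among 9200 protein-coding genes of at least 5 CPM. Runx1 and Cbfb were the most similar pair of members (0.121) and Runx1 and Runx3 the least (0.582), with Runx2 and Runx3 at 0.274. At 0.121 Cbfb was not among the 345 genes within 0.1 of Runx1, and genes with small differences lie close together by this measure. The genes closest to Runx3 were Hic1, a transcriptional repressor (0.0462), Bhlhe40, a basic helix-loop-helix factor of activated T cells (0.0680), and Pter (0.0720), and 15 genes lay within 0.1 of it. All 3 were called lower, but they were picked for likeness to Runx3 over these same libraries, so their direction was set by that choice. The calls are therefore no separate result. Bhlhe40 had 214.8, 212.3 and 206.1 CPM in DEL-1-Fc against 435.8, 408.3 and 391.9 CPM in Fc (log2 fold change -0.96, SE 0.0648, edgeR adjusted p = 7.26e-05). Closest to Runx1 were Adamts10, a secreted protease (0.0305), Rbl2, a retinoblastoma-related protein (0.0357), and Dcun1d4 (0.0376), with 345 genes within 0.1.

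Closest to Runx2 were Cdc42bpa, a kinase that acts downstream of Cdc42 (0.0389), Sfmbt2 (0.0699) and Hivep1, a zinc finger factor (0.0923), and only 5 genes lay within 0.1. Closest to Cbfb were Eri1, an exonuclease (0.0122), Rbm45, an RNA-binding protein (0.0144), and Ing3, a subunit of a histone acetylase complex (0.0160). Since 2591 genes lay within 0.1 of Cbfb, its profile was close to that of many genes with small differences. These likenesses are descriptions over the same 6 libraries.

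The genes annotated within 100 kb of a member were read as a local comparison. Of 33 such genes 27 were listed in the files and 13 were tested. Clic4, a chloride intracellular channel protein gene that lies 36 kb from Runx3 on the other strand, was the 1 of the 13 that passed, where 12.6% of all tested genes did, so the count of neighbours is near the background. It had 186.2, 203.5 and 208.5 CPM in DEL-1-Fc against 388.9, 399.2 and 392.9 CPM in Fc, and fell 1.97-fold (log2 fold change -0.98, SE 0.0654, edgeR adjusted p = 7.26e-05). It was called under all 16 alternatives. Supt3, a transcription complex subunit gene whose span overlaps Runx2 on the other strand, averaged 9.16 ± 0.565 CPM with DEL-1-Fc and 9.30 ± 0.804 CPM with Fc (edgeR adjusted p = 0.914). Cbfb lies in the densest stretch, with 20 annotated neighbours, of which 10 were tested and 0 passed. Of the 4 annotated neighbours of Runx1 0 were tested.

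Cofactors that Runx proteins recruit were next. Of 14 corepressor genes, 13 were tested and 0 passed edgeR's test (12.6% of all tested genes did), with a median log2 fold change of -0.01 against 0.01 over all tested genes. At an unadjusted edgeR p under 0.05, 3 were higher and 1 was lower, and DESeq2 called 1 higher and 1 lower. Among them Tle3, a Groucho corepressor that Runx proteins bind through their carboxyl end, had 189.8, 249.4 and 201.7 CPM in DEL-1-Fc against 222.0, 257.2 and 227.5 CPM in Fc (adjusted p = 0.436), and is named after its values were seen. Runx1t1, the ETO gene that is fused to RUNX1 in human leukaemia, also named after its values were seen, had 0 counts in every library. A count of 0 leaves room for 0.0914 CPM in the shallowest library, from counting error alone.

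Of 8 coactivator genes, 7 were matched and 6 tested, with a median log2 fold change of -0.28. In edgeR's test 0 were called higher and 1 lower (16.7% called, against 12.6% of all tested genes). With an unadjusted edgeR p under 0.05, 0 were higher and 2 lower, and DESeq2 called 0 higher and 1 lower. The gene called by edgeR was Carm1, an arginine methyltransferase. It had 122.2, 135.8 and 114.9 CPM in DEL-1-Fc against 165.1, 159.9 and 149.5 CPM in Fc (log2 fold change -0.35, SE 0.0758, edgeR adjusted p = 0.0183). Leaving out DEL-1-Fc replicate 3 (adjusted p = 0.0634), Fc replicate 1 (0.102) or Fc replicate 2 (0.0817) ended that call and left 0 of the list, while 2 of the list were lower without DEL-1-Fc replicate 2. Yipf2, on the opposite strand, covers 21.1% of the exon bases of Carm1. Of 17 enzymes that modify or degrade Runx proteins, all 17 were tested, 0 were higher and 1 was lower (5.88% called, also against 12.6%), with a median of 0.03. A single call in either list is near or below the background. At an unadjusted edgeR p under 0.05, 2 enzymes were higher and 3 lower, where a p of 0.0488 ranked 3987th of all 14928 tested genes. DESeq2, which called 2429 genes in all, called 1 enzyme higher and 1 lower. Mdm2, a ubiquitin ligase best known for p53, had 97.4, 104.1 and 105.9 CPM in DEL-1-Fc against 129.8, 121.8 and 124.0 CPM in Fc (-0.29, SE 0.0604, adjusted p = 0.015), a call lost without Fc replicate 1 (0.0926), 2 (0.0568) or 3 (0.0706).

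Transcription factors that bind DNA together with Runx proteins changed in both directions. Of 21 such genes 18 were tested, and 6 rose and 4 fell in DEL-1-Fc, 55.6% against 12.6% of all tested genes. The list was drawn up with earlier results of these libraries known, so its count is a description, and its median log2 fold change was 0.13. Tbx21, which encodes T-bet, the Th1 factor that works with Runx3 at Ifng, had 71.5, 72.5 and 71.1 CPM in DEL-1-Fc against 174.1, 156.8 and 155.3 CPM in Fc (log2 fold change -1.18, SE 0.0642, edgeR adjusted p = 4.4e-05). Eomes, the other T-box factor of the list, had 99.6, 110.6 and 113.0 CPM in DEL-1-Fc against 191.8, 218.1 and 204.9 CPM in Fc (-0.93, SE 0.0741, adjusted p = 0.00014). Neither gene overlapped between the arms.

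Gata1, the erythroid and megakaryocytic factor that Runx1 partners in those lineages, was 2.87-fold higher, at 21.1, 18.9 and 15.2 CPM in DEL-1-Fc against 4.95, 7.29 and 6.96 CPM in Fc (log2 fold change 1.52, SE 0.17, edgeR adjusted p = 0.000713). Erythroid and platelet markers were low beside it, and Hbb-bs, Pf4 and Gp9 had 0 counts in all libraries. The summed erythroid markers reached at most 0.183 CPM with DEL-1-Fc and 0.0163 CPM with Fc. Of these, Hba-a1 had 6, 5 and 2 counts in DEL-1-Fc against 0, 1 and 0 in Fc. The summed platelet markers, which were Itga2b alone, ran from 0.701 to 1.13 CPM in DEL-1-Fc and from 1.09 to 1.29 CPM in Fc. Gata3, the Th2 factor, fell (-0.56, SE 0.0901, adjusted p = 0.00437), and Smad3, which carries TGFβ signals to Runx sites, rose (0.41, SE 0.0719, adjusted p = 0.00637).

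Foxp3, which binds Runx1 as a protein and is a Runx target as a gene, rose 1.46-fold (log2 fold change 0.54, SE 0.116, edgeR adjusted p = 0.0166), a call that ended when DEL-1-Fc replicate 1 (adjusted p = 0.0928), Fc replicate 1 (0.0873) or Fc replicate 3 (0.0753) was left out. Other genes overlap 31.5% of its exon bases. Jun, an AP-1 subunit, fell by 0.25 on the log2 scale (adjusted p = 0.0262), a call lost without DEL-1-Fc replicate 3 (0.0853) or any 1 Fc library (0.0886, 0.142 and 0.0974). Myb (adjusted p = 0.0368) and Fli1 (0.0487), which also rose, are named after their values were seen, and each lost its call without any 1 Fc library (0.0836 to 0.179 for Myb, 0.157 to 0.192 for Fli1) and without DEL-1-Fc replicate 2 or 3 (0.0721 and 0.102 for Myb, 0.071 and 0.0791 for Fli1). Fli1 also lost it with RLE factors (0.0533), limma-voom (0.0536), no filter on low counts (0.101), the replicate block (0.0851) and thinning to the smallest library (0.0581), which left it called in 6 of 16 alternatives, against 11 of 16 for Myb. Without Fc replicate 1 or 3 the risers of the list numbered 3.

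T cell genes reported in the literature as bound or regulated by Runx proteins also split between the directions. Of 26 genes 25 were tested, and 6 rose and 9 fell in DEL-1-Fc (60% called, against 12.6% of all tested genes, with a median of -0.16), and Foxp3, Tbx21 and Eomes are among the genes on both lists. This list too was drawn up with earlier results of these libraries known, so its count is a description. The largest change of this list was in Csf2, the GM-CSF gene whose promoter holds a Runx site, at 26.8, 25.8 and 26.1 CPM in DEL-1-Fc against 108.1, 100.5 and 92.6 CPM in Fc (log2 fold change -1.94, SE 0.0733, edgeR adjusted p = 1.34e-05). Ifng, a gene that Runx3 and T-bet activate together, had 10.4, 9.68 and 13.9 CPM in DEL-1-Fc against 36.1, 31.1 and 28.6 CPM in Fc (-1.49, SE 0.147, adjusted p = 0.000418). Gzmb, encoding granzyme B, had 407.7, 433.3 and 509.2 CPM in DEL-1-Fc against 998.1, 1008 and 972.7 CPM in Fc (-1.14, SE 0.0898, adjusted p = 0.000133).

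Prf1, encoding perforin, was higher, at 9.66, 7.96 and 7.64 CPM in DEL-1-Fc against 3.47, 4.67 and 4.04 CPM in Fc (log2 fold change 1.05, SE 0.146, edgeR adjusted p = 0.00206). Cd8a, activated by Runx3 in CD8 cells, had 3.6, 4.1 and 4.49 CPM in DEL-1-Fc against 2.52, 2.28 and 2.29 CPM in Fc (0.78, SE 0.135, adjusted p = 0.00607), whereas its neighbour Cd8b1 had 8.20 ± 0.878 CPM with DEL-1-Fc and 7.96 ± 0.160 CPM with Fc (adjusted p = 0.846). Cd4, which Runx proteins silence in CD8 cells, had 642.8 ± 27.1 CPM with DEL-1-Fc and 661.2 ± 33.4 CPM with Fc (adjusted p = 0.752). Ccl5, a chemokine of effector cells, fell (-1.53, SE 0.141, adjusted p = 0.000294).

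**Figure D4:**
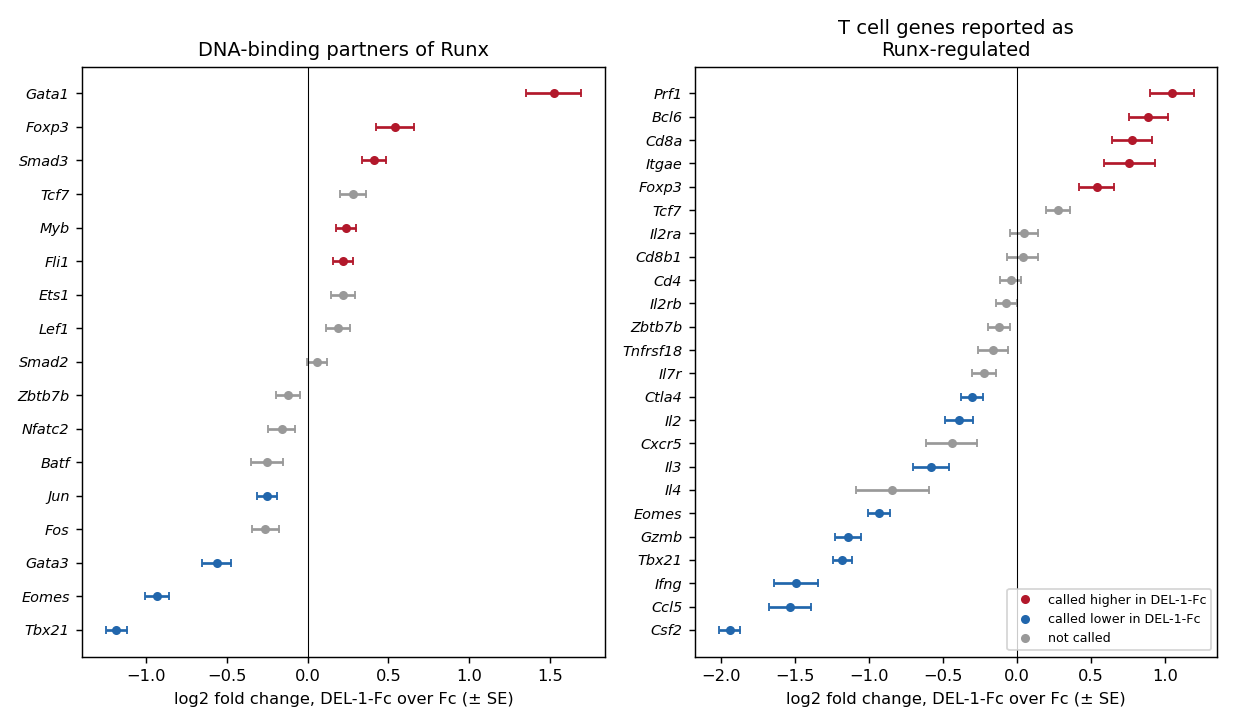
Log2 fold change, DEL-1-Fc over Fc, with its SE for tested genes of the list of DNA-binding partners (left, 1 gene not shown) and of the list of T cell genes reported as Runx-regulated (right, 1 gene not shown), ordered by value, with called genes in red (higher) or blue (lower). Tbx21 and Eomes lie at the low end of the partner list at -1.18 and -0.93 and Csf2 at the low end of the other at -1.94, while Gata1, at 1.52, and Prf1, at 1.05, lie at the high ends.

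Most genes that Runx2 switches on in bone and cartilage were almost silent. Of 9 such genes 3 were tested and 1 was called (33.3%, against 12.6% of all tested genes). Bglap2 and Ibsp had 0 counts in every library, and the called gene, Alpl (alkaline phosphatase), had 4.88, 5.27 and 4.84 CPM in DEL-1-Fc against 3.4, 3.69 and 3.7 CPM in Fc (log2 fold change 0.47, SE 0.113, edgeR adjusted p = 0.0266). Its direction was opposite to that of Runx2, and the call did not survive leaving out DEL-1-Fc replicate 2 (adjusted p = 0.0739) or 3 (0.0618), or Fc replicate 1 (0.126), 2 (0.0915) or 3 (0.0914), nor using no filter on low counts (0.0516) or the replicate block (0.0587).

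**Figure D5:**
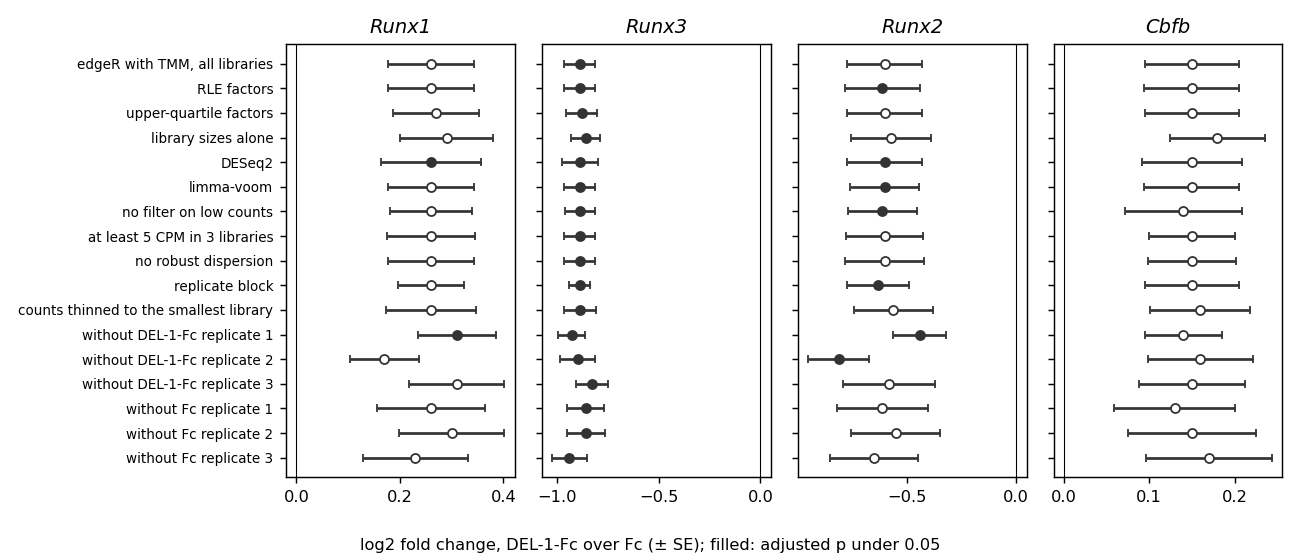
Log2 fold change, DEL-1-Fc over Fc, with its SE for each member under the edgeR fit and 16 alternative settings, filled where the adjusted p was under 0.05, with the zero line drawn. Runx3 is filled in every setting, Cbfb in none, Runx1 in 2 and Runx2 in 7 of the 16 alternatives, and each gene stays on its own side of 0 throughout.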

How the data were processed

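PolyA RNA libraries, 3 of DEL-1-Fc and 3 of Fc, were read from the deposited files, which hold raw counts of reads per gene. STAR, with no version, and HTSeq 0.6.0 are named per the submitters' processing notes, as is the build GRCm38 (mm10). Not given in the sources used here are the annotation release, the strand setting and the treatment of multi-mapping reads. Of 39179 identifiers, 37693 matched GENCODE M21 (GRCm38), which gave symbols, coordinates and exon lengths.

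Counts were fitted with edgeR 4.0.16 in R 4.3.3: filterByExpr (minimum count 10, minimum total 15) left 14928 genes. Libraries were scaled by TMM and arms compared by the robust quasi-likelihood test. Its p-values were adjusted by Benjamini-Hochberg over those genes, and an adjusted p under 0.05 was a call. CPM values use TMM-scaled library sizes. Each SE was derived from the fold change and its F statistic (size of the log2 value over the root of F). Shares and ratios, 1 value per library, were compared by exact two-sided permutation (SciPy 1.17.1), where 0.10 is the smallest p possible. A count of 0 allows up to 3 counts, which covers counting error only.

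Members and the 6 gene lists (88 of 89 symbols matched) were chosen with earlier results of these data known. Named genes are the members, Foxp3, Cd8a, Cd8b1, called list members (up to 8 per list), genes within 100 kb of a member and the 3 most alike genes; others were named after their values were seen. A member of 2 of the lists, counted in them, is not reported here. Replicates of an arm differed far beyond counting noise (chi-square per degree of freedom at least 18.3). Alternatives were DESeq2 1.42.0, limma-voom (limma 3.58.1), other scaling factors, other filters, no robust dispersion, a replicate block, thinning to 33364166 counts and each library left out. The fits were tested on simulated counts first.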

Additional observations from a re-analysis of the deposited data

How the results depend on the processing

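Runx3 and Cbfb kept their direction and their side of the threshold under all 16 alternatives, and Runx1 and Runx2 kept their direction. Runx1 passed with DESeq2 (0.26). Runx2 passed with RLE factors (-0.61, adjusted p = 0.0493), DESeq2 (-0.60), limma-voom (-0.60), no filter on low counts (-0.61) and the replicate block (-0.63, adjusted p = 0.0434). The cause was not tested. Leaving out 1 library gave log2 fold changes of 0.17 to 0.31 for Runx1, -0.81 to -0.44 for Runx2, -0.94 to -0.83 for Runx3 and 0.13 to 0.17 for Cbfb. It gave differences of 17.4 to 19.6 percentage points for the Runx1 share, -1.10 to -0.148 for the Runx2 share and -19.5 to -16.3 for the Runx3 share, of -0.47 to -0.37 for the log2 Runx sum, 1.07 to 1.24 for the log2 ratio of Runx1 to Runx3 and 0.51 to 0.63 for that of Cbfb to the Runx sum. The Runx2 share difference reversed to 0.0235 per kilobase of exon, which reweights the genes by length.

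All genes called numbered 1884, and 901 to 3003 when 1 library was left out (3003 without DEL-1-Fc replicate 1, and 901, 970 and 963 without Fc replicates 1, 2 and 3). Leaving out 1 library gave 0 to 1 corepressors higher and 0 to 1 lower, 0 to 2 coactivators lower, 0 to 1 enzymes higher and 0 to 1 lower, 3 to 8 partners higher and 3 to 6 lower, 4 to 6 Runx-regulated genes higher and 6 to 10 lower, and 0 to 1 bone genes higher. The corepressor and the enzyme called higher appeared without DEL-1-Fc replicate 1 (1 each), and the corepressor called lower without DEL-1-Fc replicate 2 (1). DESeq2, which called 2429 genes in all, gave 1 corepressor higher, 1 corepressor lower and 1 enzyme higher, against 0 of each in the edgeR fit. The replicate block gave 1 corepressor lower and 1 enzyme higher. The 1 bone gene was no longer called with no filter or with the block (0 in each). The filter of at least 5 CPM in 3 libraries removed that gene before testing, so 0 were called there too.

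Same-numbered libraries did not deviate together (correlations 0.0163, 0.0885 and 0.0425), so the numbers were not taken as pairs. The replicate block gave 1510 calls, and for shares and ratios the paired sign-flip test cannot go below 0.25. Thinning every library to the smallest total gave -0.56 for Runx2 (adjusted p = 0.0813).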
